A study of Mus musculus with 8 samples.

Results

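The genes described here are 9 cytosolic nucleic acid sensors and their direct partners, namely Zbp1, Ifi204, Aim2, Trex1, Tbk1, Irf3, Ddx58, Ifih1 and Dhx58. They were picked by name, with earlier results of these data known, and are 9 of the 32285 genes in the count matrices. They were counted in droplet libraries of cells sorted for CD45, CD11b and high Ly6C, a sort meant for monocytic myeloid cells. The cells came from MC38 colon carcinomas, a transplanted mouse tumor line, or from the blood of the mice that bore them. Tumors were left untreated (control) or received 1 dose of 20 Gy of ionizing radiation (IR), with collection 3 days afterwards, and the study asked how loss of the m6A reader YTHDF2 in myeloid cells alters the response to IR. There were 4 libraries (tumor control, tumor IR, blood control and blood IR). Each mixed cells of 2 genotypes, so there were 8 groups. All mice carried floxed Ythdf2 alleles. The Ythdf2-cKO mice also carried a Cre at the lysozyme locus, which acts in myeloid cells in general and in no one myeloid type, and the WT mice carried no Cre. Cells of several mice were pooled for each group, and the ages of the mice were not given in the labels. A droplet's genotype was read from 2 hashtag antibodies, B0301 for WT and B0302 for cKO.

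Cells detect foreign or misplaced nucleic acid in the cytosol through dedicated receptors. Those for DNA include AIM2, which assembles an inflammasome, and IFI204, a member of the PYHIN family to which AIM2 also belongs, whereas ZBP1 binds left-handed nucleic acid and can start cell death. RIG-I (encoded by Ddx58) and MDA5 (Ifih1) are helicases that bind double-stranded RNA and signal through MAVS, and LGP2 (Dhx58) is a related helicase that lacks the signaling domains and modulates both. Signals from RIG-I and MDA5 converge on the kinase TBK1, which phosphorylates the transcription factor IRF3. The interferon made in turn raises the transcription of many sensors, while TREX1 is the exonuclease that degrades cytosolic DNA. In radiation biology the pathway is known for linking DNA damage to type I interferon.

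All 9 genes are protein-coding and were matched by identifier to the GENCODE vM21 annotation of mm10. Aim2 (chr1:173350879-173466040, plus strand) and Ifi204 (chr1:173747293-173766943, minus strand) lie in the PYHIN gene cluster of chromosome 1, where neighbouring genes are close copies, so the split of reads between Ifi204 and its neighbours is uncertain. Ifih1 (chr2:62595798-62646255) and Zbp1 (chr2:173206612-173218923) lie on the minus strand of chromosome 2. Ddx58 (chr4:40203773-40239828), Tbk1 (chr10:121546455-121586787) and Dhx58 (chr11:100694884-100704271) are on the minus strand, and Irf3 (chr7:44997648-45002848) is on the plus strand. Trex1 (chr9:109057933-109059734, minus strand) is annotated wholly inside Atrip (chr9:109057933-109074124), which has the same strand and the same 3′ end.

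Promoter windows from RefSeq (GRCm38.p6, 250 bases before to 50 bases after the start site) were given for 6 of the 9 genes and held 7 windows in all, with 2 for Trex1. Zbp1, Ifi204 and Dhx58 had no window. They were searched on both strands for the core of the interferon-stimulated response element (GAAA, then 2 bases of any kind, then GAAA) and for TTCNNNGAA, the interferon-gamma activated site. Ddx58 and Ifih1, the 2 helicase sensors with a window, each held 1 response element, shown here because both genes were higher after IR. The sequences run 5′ to 3′ along the minus strand, and capitals mark the matched letters, which are the reverse complement of the motif in Ddx58.
Ddx58, chr4:40239804-40239833: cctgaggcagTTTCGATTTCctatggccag
Ifih1, chr2:62646206-62646235: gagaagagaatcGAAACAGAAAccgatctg
The match lay 3 to 12 bases downstream of the start site in Ddx58 and 33 to 42 bases downstream in Ifih1. Of 32851 windows of all genes, 3.44% held the response element and 8.3% the activated site. Aim2, Trex1, Tbk1 and Irf3 held neither in these windows, and no window of the 6 genes held the activated site. A match is a description of the letters and not evidence of a bound site.

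After filtering, 26537 cells were kept, 2142 to 4415 per group, with a median of 2931 to 8597.5 unique molecular identifiers (UMIs) per cell. Levels are given as CPM, the UMIs of a gene scaled to a fixed total of UMIs summed over the group's cells. In such sums, fewer cells of a type and less RNA per cell cannot be told apart. Each group was 1 pool in 1 library, so no group had a replicate and no test was possible. The 95% intervals (exact Poisson for CPM, exact conditional binomial for ratios, and a normal approximation for differences between ratios) cover counting error only, not the difference between mice. Ptprc, which encodes CD45, stood at 311.4 to 1848 CPM, Itgam, which encodes CD11b, at 331.7 to 643.6 CPM and Ly6c2 at 155 to 1461 CPM, so the genes behind the sort were detected in every group. The blood groups held 64.8% to 69.1% neutrophil-like cells. Cells labelled cKO had lost Lyz2 (log2 ratio to WT -7.41 to -5.89) but held more Ythdf2 tags than WT cells (log2 ratio 2.72 to 3.26), so these 3′ tags went against the label. Where the tags lie relative to the deleted part was not examined.

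The tumor libraries could not be treated as fully separate. Of 4643 kept tumor control cells, 4491 (96.7%) also had at least 500 UMIs under the same barcode in the tumor IR matrix, and of 6860 kept tumor IR cells, 6675 (97.3%) did so in the tumor control matrix. Barcodes were shared by at most 39 cells between any other pair of libraries. In the other matrix the shared barcodes had a lower depth, for example a median of 3107 UMIs against 6824 for tumor control WT, and 96.5% to 98.0% of them had fewer than 20 hashtag UMIs there, which left only 30 barcodes kept in both. The members' levels went with the matrix that held a barcode's hashtags. When the shared barcodes of tumor IR and tumor control were counted in the tumor control matrix alone, the log2 ratio of IR to control in WT was 2.02 for Ddx58, 1.49 for Ifi204 and 1.68 for Ifih1. When they were counted in the tumor IR matrix alone, it was 1.99, 1.48 and 1.84. In cKO, Ddx58 stood at 2.56 and 2.35 and Zbp1 at 2.24 and 2.08. Without the hashtag minimum the contrast between the matrices shrank. Over all called barcodes Zbp1 stood at 345.8 CPM in the tumor IR matrix and 266.1 CPM in the tumor control matrix, a log2 ratio of 0.38, and Ddx58 had a log2 ratio of 0.48. The 6953 called barcodes of the tumor control matrix with fewer than 20 hashtag UMIs held Zbp1 at 456.2 CPM, whereas the 4658 of the tumor IR matrix held it at 143.5 CPM. All tumor values that follow therefore rest on the hashtags for treatment as well as for genotype. Why the barcodes are shared was not tested.

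Irradiated tumors held the sensors of both DNA and RNA at higher levels than untreated tumors, in both genotypes. A member was counted as past the limit when its level differed at least 2-fold (an absolute log2 ratio of 1) and it had at least 100 UMIs over both groups. By that rule 5 of the 8 measured members were higher after IR in WT tumors, against 2.58% of the 10143 genes with enough UMIs, and the same 5 members were higher in cKO tumors, against 5.13% of 10690 genes. These were Zbp1, Ifi204, Ddx58, Ifih1 and Dhx58. The median log2 ratio of the 8 members was 1.31 in WT and 2.10 in cKO, beside -0.13 and -0.18 over all genes. Tbk1, Irf3 and Aim2 stayed within the limit in both genotypes, except that Tbk1 passed it in cKO when TMM factors were used for scaling. In WT, Zbp1 fell short of the limit when each cell counted equally, with a log2 ratio of 0.99.

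**Figure D1:**
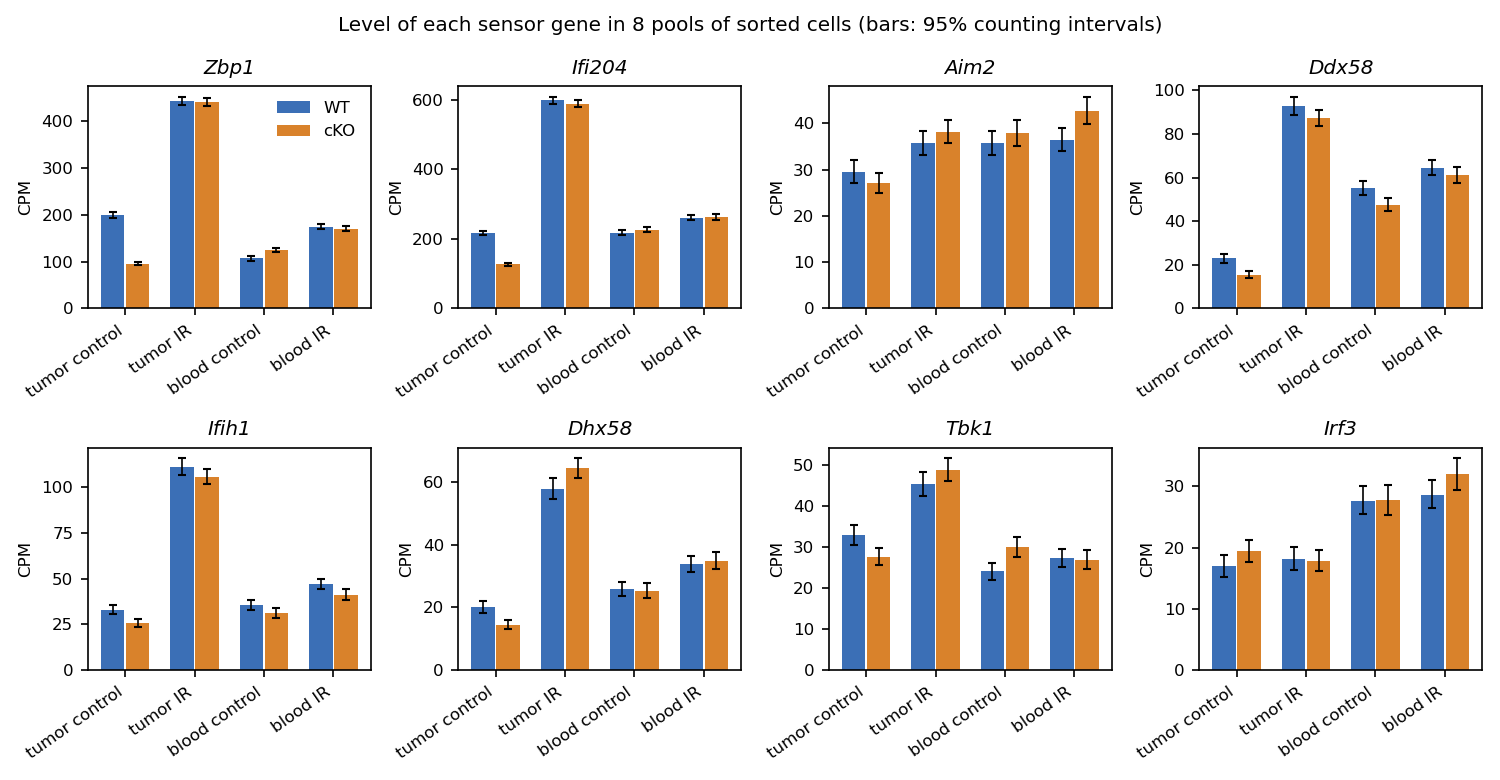
Level of 8 sensor genes (CPM of UMIs summed per group, each y axis from 0) in the 4 libraries, for WT (blue) and cKO (orange) pools, with 95% Poisson counting intervals. Zbp1, Ifi204, Ddx58, Ifih1 and Dhx58 are highest in both tumor IR pools, where the bars of the genotypes lie close together, and Irf3 is higher in blood than in tumor.

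Among the RNA helicases, Ddx58 was at 22.9 CPM in WT and 15.4 CPM in cKO cells of untreated tumors. It stood at 92.8 and 87.3 CPM in irradiated tumors, at 55.2 and 47.6 CPM in control blood, and at 64.5 and 61.2 CPM in blood after IR. The untreated tumors thus had the lowest values and the irradiated tumors the highest, with blood between them. The log2 ratio of IR to control in tumors was 2.02 in WT (1.87 to 2.17) and 2.50 in cKO (2.34 to 2.67), the largest among the members in each genotype.

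Ifih1 had 32.9 CPM in WT and 25.7 CPM in cKO cells of untreated tumors and 111.2 and 105.7 CPM after IR, against 35.5, 31.0, 46.9 and 41.1 CPM in the blood groups in the same order. Control tumors and control blood were therefore alike for Ifih1 in WT, with a log2 ratio of tumor to blood of -0.11 (-0.26 to 0.04). After IR, the tumor values lay above every blood value. The IR log2 ratio in tumors was 1.76 in WT (1.63 to 1.88) and 2.04 in cKO (1.91 to 2.17).

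Dhx58, the regulator of the other helicases, had 20.0 and 14.4 CPM in untreated tumors and 57.7 and 64.4 CPM in irradiated tumors, in WT and cKO. Its blood values were 25.9, 25.3, 33.8 and 34.7 CPM (control WT, control cKO, IR WT and IR cKO). The IR log2 ratio in tumors was 1.53 in WT (1.36 to 1.70) and 2.16 in cKO (1.99 to 2.33). Dhx58 was the only member whose interval for cKO against WT in irradiated tumors lay above 0, with a log2 ratio of 0.16 (0.05 to 0.27), well inside the limit.

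Zbp1 stood at 199.4 CPM in WT and 95.9 CPM in cKO cells of untreated tumors. It reached 443.4 and 441.4 CPM after IR. In blood it had 106.8 and 124.5 CPM without IR and 174.7 and 170.6 CPM with IR. The genotypes were thus farthest apart in untreated tumors. The IR log2 ratio in tumors was 1.15 in WT (1.10 to 1.21) and 2.20 in cKO (2.14 to 2.27). Counted per cell, 54.2% of WT and 42.9% of cKO cells of untreated tumors held a Zbp1 UMI, against 73.1% and 74.1% after IR. Empty droplets, which hold free RNA, had Zbp1 at 198.3 CPM in the tumor control and 431.4 CPM in the tumor IR library, near or above the levels of the cells, and the part of free RNA in these shares was not tested.

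Ifi204 was also highest in irradiated tumors and lowest in cKO cells of untreated tumors, with 217.6 and 127.3 CPM in untreated and 599 and 589.4 CPM in irradiated tumors, and 218, 226.3, 261.3 and 263 CPM across the blood groups. Unlike Zbp1, Ifi204 in WT did not stand above blood in untreated tumors, where the interval of the log2 ratio of tumor to blood ran from -0.06 to 0.06. The IR log2 ratio in tumors was 1.46 in WT (1.41 to 1.51) and 2.21 in cKO (2.15 to 2.27). Aim2, the other PYHIN sensor among the members, varied far less, from 27.0 to 42.7 CPM over all 8 groups. Its IR log2 ratio in tumors was 0.27 in WT (0.12 to 0.43) and 0.50 in cKO (0.36 to 0.65).

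Of the signaling partners, Tbk1 had 32.8 and 27.5 CPM in untreated tumors, 45.3 and 48.8 CPM in irradiated tumors, and 24.0 to 29.9 CPM in blood. Its IR log2 ratio in tumors was 0.46 in WT (0.32 to 0.61) and 0.82 in cKO (0.69 to 0.96). Irf3 had 16.9 to 19.4 CPM in the 4 tumor groups and 27.7 to 31.9 CPM in the 4 blood groups. Its IR log2 ratio in tumors was 0.10 in WT (-0.11 to 0.32) and -0.12 in cKO (-0.31 to 0.07), and both intervals include 0. Tbk1 and Irf3, like Aim2, thus lay below the 5 members past the limit in both genotypes.

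Trex1 could not be described. It was listed at 1 UMI in all kept cells, in blood control cKO, for which the upper 95% Poisson bound is 5.57 UMIs. Atrip, whose annotated span contains Trex1, held 942 UMIs and 4.44 to 6.90 CPM over the 8 groups. Whether reads from Trex1 were left uncounted because both genes end at the same base was not tested.

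**Figure D2:**
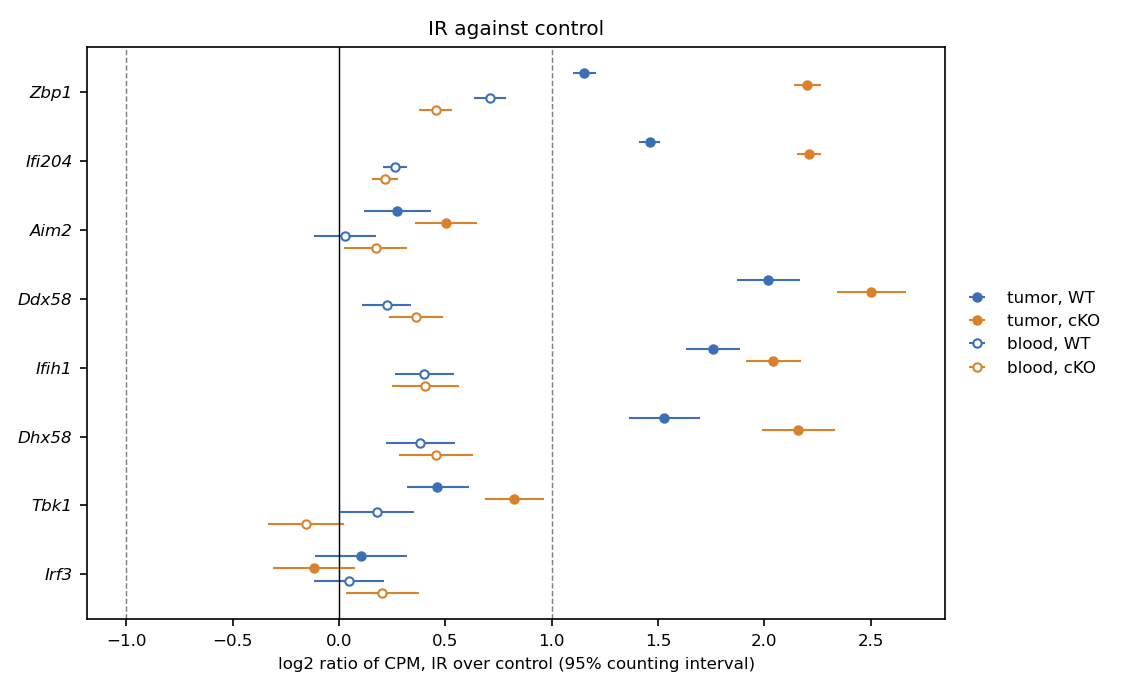
Log2 ratio of CPM, IR over control, for 8 sensor genes in tumor (filled) and blood (open), WT (blue) and cKO (orange), with 95% conditional binomial counting intervals, and dashed lines at the 2-fold limit. Points of 5 genes lie beyond the limit in tumor in both genotypes, from 1.15 to 2.50, and every blood point lies inside it.

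In blood, the distance between IR and control was smaller. None of the 8 measured members passed the limit in WT, against 1.31% of 9748 genes in either direction, and none did in cKO, against 1.43% of 9473 genes. The median log2 ratio of the 8 members was 0.24 in WT and 0.29 in cKO, beside 0.03 and 0.07 over all genes. In WT, Zbp1 was the farthest from 0, with a log2 ratio of 0.71 (0.63 to 0.79), followed by Ifih1 at 0.40 and Dhx58 at 0.38. In cKO, Zbp1 and Dhx58 both stood at 0.45, with overlapping intervals, and Ifih1 at 0.41. Tbk1 had a log2 ratio of 0.18 in WT and -0.15 in cKO. The difference between the IR ratios of tumor and blood was largest for Ddx58, at 1.79 in WT (1.61 to 1.98) and 2.14 in cKO (1.93 to 2.34).

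Before IR, cells labelled cKO held lower levels of most sensors than WT cells in tumors, and in the other 3 libraries the genotypes lay close together. In untreated tumors Zbp1 alone passed the limit, with a log2 ratio of cKO to WT of -1.05 (-1.13 to -0.98), which makes 1 of 8 members lower against 1.35% of 10677 genes. Ifi204 followed at -0.77 (-0.84 to -0.71), Ddx58 at -0.57 (-0.78 to -0.37), Dhx58 at -0.47 (-0.69 to -0.26), Ifih1 at -0.36 (-0.52 to -0.20) and Tbk1 at -0.25 (-0.41 to -0.10). For Aim2 and Irf3 the intervals included 0. The median over the 8 members was -0.41, and 0.11 over all genes.

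The Zbp1 value lay close to the limit and depended on how cells were assigned. The log2 ratio was -0.68 when either hashtag had to reach 4 times the other, -0.94 when cKO needed only the larger count, -0.98 without doublet removal and -0.87 when each cell counted equally. The makeup of the tumor control pools also differed between genotypes. Fibroblast-like cells were 4.64% of WT and 11.6% of cKO cells. They were deep, with a median of 26371.5 UMIs per cell over all tumor groups, against 8597.5 for all tumor control cKO cells. The 488 fibroblast-like cells held 8.225% of the UMIs of all kept cells. They thus weighed more in sums of UMIs than their shares of cells show. Ly6c2 stood at 446.5 CPM in WT and 155 CPM in cKO. The summed level of 8 fibroblast markers was 852.1 and 1441 CPM, with all 8 detected in both. Within macrophage-like cells alone Zbp1 stood at 189.5 CPM in WT and 97.6 CPM in cKO, a log2 ratio of -0.96 (-1.06 to -0.86), while Ifi204 had -0.49, Ddx58 -0.40 and Ifih1 -0.08. Within fibroblast-like cells Zbp1 had -0.42 (-0.82 to -0.03). Among the macrophage-like cells, cluster 3 held 65.9% of WT and 51.7% of cKO cells and cluster 11 held 11.1% and 26.1%. Cluster 18 held 2.64% and 13.1% of them. Over all groups pooled, Zbp1 stood at 289.7 CPM in cluster 3, 71.9 CPM in cluster 11 and 75.8 CPM in cluster 18. Cluster 4, which the markers did not name, was 20.55% of WT and 12.65% of cKO cells of untreated tumors. It held Zbp1 at 351.6 CPM in the tumor control library. After IR, fibroblast-like cells were 2.513% of WT and 1.198% of cKO tumor cells. The part of the makeup in these values, and in the larger IR ratios of cKO tumors, was not tested beyond single classes.

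**Figure D3:**
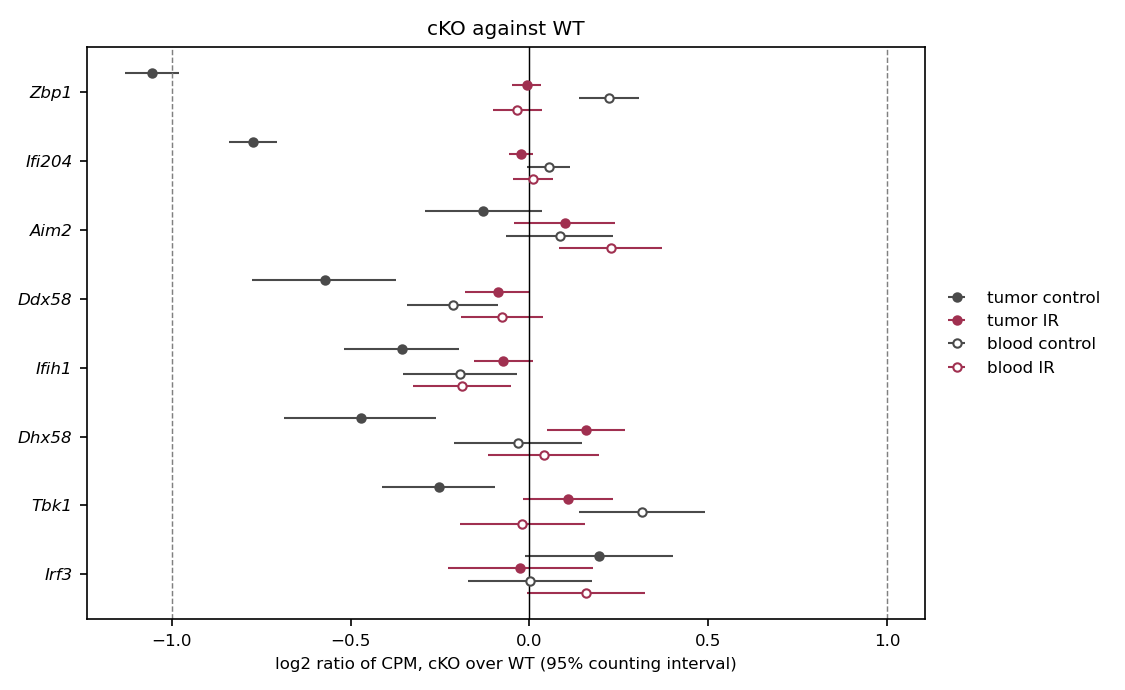
Log2 ratio of CPM, cKO over WT, for 8 sensor genes in the tumor control (filled grey), tumor IR (filled red), blood control (open grey) and blood IR (open red) libraries, with 95% conditional binomial counting intervals and dashed lines at the 2-fold limit. Zbp1 in tumor control is the single point beyond the limit, at -1.05, and the tumor IR points lie between -0.09 and 0.16.

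After IR the genotypes lay close together in tumors. No member passed the limit, against 1.08% of 10027 genes, and the log2 ratios of cKO to WT ran from -0.09 (Ddx58) to 0.16 (Dhx58). The interval included 0 for 7 of the 8 members. Zbp1 had -0.01 (-0.05 to 0.03) and Ifi204 -0.02 (-0.06 to 0.01). For Zbp1 and Ifi204 the larger IR ratio in cKO tumors therefore went with a lower level before IR, whereas Dhx58 was both lower in cKO before IR and higher after it. The difference of the IR log2 ratios, cKO minus WT, was 1.05 (0.96 to 1.13) for Zbp1, 0.75 (0.67 to 0.82) for Ifi204, 0.63 (0.40 to 0.86) for Dhx58 and 0.48 (0.27 to 0.70) for Ddx58. In blood this difference ran from -0.33 (Tbk1) to 0.16 (Irf3).

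In blood no member passed the limit between genotypes without IR, against 2.26% of 9611 genes, or with IR, against 0.666% of 9616 genes. Without IR the cKO to WT log2 ratio was 0.31 (0.14 to 0.49) for Tbk1, 0.22 (0.14 to 0.31) for Zbp1, -0.21 (-0.34 to -0.09) for Ddx58 and -0.19 (-0.35 to -0.04) for Ifih1. With IR, Aim2 had 0.23 (0.08 to 0.37) and Ifih1 -0.19 (-0.33 to -0.05), and the other 6 intervals included 0.

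Between untreated tumor and blood, Ddx58 was the member past the limit in each genotype. It was lower in tumor by a log2 ratio of -1.27 (-1.43 to -1.11) in WT, where 15.5% of 10382 genes were lower past the limit, and of -1.63 (-1.81 to -1.45) in cKO, where 16.4% of 10757 genes were. A count of 1 in 8 members is close to those shares. Zbp1 differed in sign between the genotypes, with 0.90 in WT (0.83 to 0.98) and -0.38 in cKO (-0.46 to -0.29). Irf3 was lower in tumor in both, with -0.71 and -0.52.

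Clustering gave 25 groups of cells. Marker genes named 21 of them as 11 classes and left 4 without a name. The largest class was macrophage-like in tumor (5171 cells) and neutrophil-like in blood (10077 cells). In tumor, Zbp1 was at 369 CPM in conventional dendritic cell-like, 238.6 CPM in macrophage-like, 124.6 CPM in NK cell-like, 116.8 CPM in mature dendritic cell-like and 39.6 CPM in fibroblast-like cells. The intervals of NK cell-like (108.5 to 142.3) and mature dendritic cell-like cells (96.2 to 140.6) overlapped, and the others did not. This order leaves out the unnamed clusters, which held 22.6% to 55.6% of the cells of a tumor group. It also mixes treatments, with 365 control and 123 IR fibroblast-like cells against 44 and 104 mature dendritic cell-like cells. With clustering at resolution 0.4, macrophage-like cells had the highest Zbp1 and Ifi204 levels of the named classes. Ifi204 ran in the same tumor classes from 321.4 CPM in conventional dendritic cell-like and 267.1 CPM in macrophage-like cells to 91.8 CPM in mature dendritic cell-like cells, with 39.8 CPM in NK cell-like and 39.7 CPM in fibroblast-like cells.

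The helicases divided by cell class. In blood, Ddx58 was highest in neutrophil-like cells, at 79.1 CPM (75.9 to 82.4), followed by 64.1 CPM (51.6 to 78.7) in NK cell-like cells, whose interval overlapped that of the neutrophil-like cells. It was 43.9 CPM in monocyte-like cells. Between neutrophil-like and monocyte-like cells Dhx58 had the opposite order, with 13.4 and 43.9 CPM, and Ifih1 had 32.2 and 44.8 CPM. In NK cell-like cells of blood Dhx58 stood at 7.04 CPM and Ifih1 at 9.16 CPM. In tumor, mature dendritic cell-like cells held Ifih1 at 66.8 CPM (51.4 to 85.2) but Ddx58 at 10.4 CPM from 10 UMIs, whereas conventional dendritic cell-like cells held 69.0 and 54.0 CPM.

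Ifi204 in blood ranged from 332.1 CPM in monocyte-like and 297.6 CPM in nonclassical monocyte-like cells to 143.7 CPM in neutrophil-like and 4.93 CPM in NK cell-like cells. After each cell was thinned to 1000 UMIs, 27.1% of monocyte-like cells and 0.739% of NK cell-like cells of blood held an Ifi204 UMI. Their median depths before thinning were 11322 and 3307 UMIs, and the NK cell-like share gives the level found in a class with little Ifi204. Irf3 was highest in B cell-like cells, at 93.3 CPM (63.8 to 131.7) from 32 UMIs in 76 cells, against 21.8 CPM in neutrophil-like and 44.4 CPM in NK cell-like cells of blood. Aim2 was at 52.5 CPM in both B cell-like and nonclassical monocyte-like cells, at 45.3 CPM in monocyte-like and at 25.8 CPM in neutrophil-like cells, and at 1.29 CPM in fibroblast-like cells of tumor. Tbk1 was at 39.8 CPM in macrophage-like and 14.6 CPM in fibroblast-like cells of tumor, and at 25.1 to 40.9 CPM in neutrophil-like, monocyte-like, nonclassical monocyte-like and NK cell-like cells of blood.

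**Figure D4:**
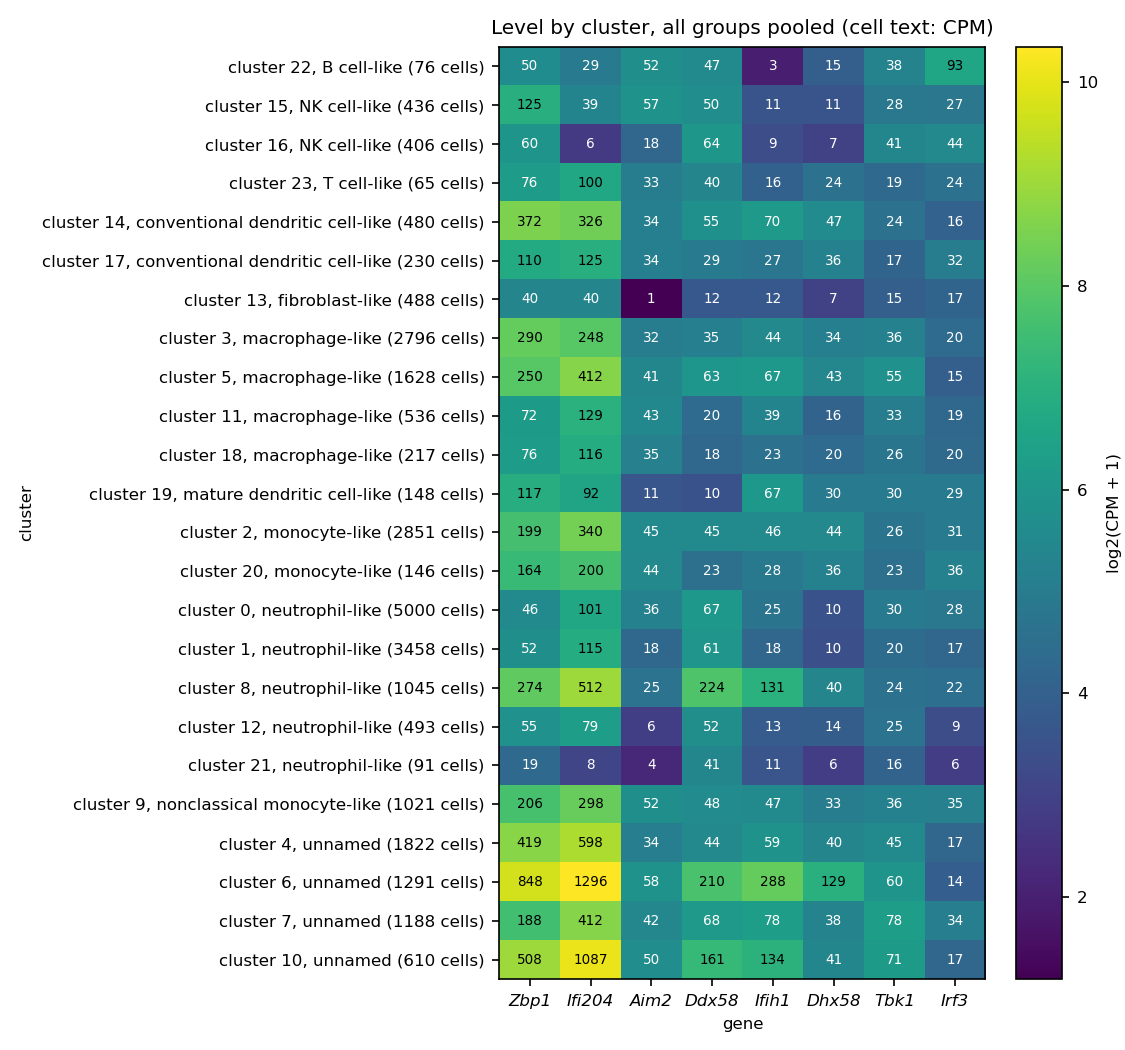
Level of 8 sensor genes (columns) in the clusters with at least 50 cells (rows, with name and number of cells), all groups pooled. The color gives log2(CPM + 1) and the text the CPM. Clusters 6 and 10 and neutrophil-like cluster 8 hold the highest Ddx58 values, and cluster 6 has the highest Zbp1, Ifi204, Ifih1 and Dhx58 values, while Irf3 is highest in the B cell-like cluster 22.

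The highest sensor levels in tumor were in clusters that the markers did not name. Cluster 6, led by Ifit1bl1, Ifit2, Rsad2 and Oasl1, genes that interferon induces, held 1291 cells, of which 45 came from tumor control and 1245 from tumor IR. Its levels were 847.5 CPM for Zbp1, 1296 CPM for Ifi204, 209.8 CPM for Ddx58, 288.3 CPM for Ifih1 and 128.6 CPM for Dhx58. It held 5.03% of all UMIs but 26.5% of those of Ifih1, 20.6% of Ifi204 and 18.9% of Ddx58, against 3.05% of Irf3. Cluster 10, led by Ccl3 and G0s2 and low in depth, was also mostly from tumor IR (567 of 610 cells) and held Ifi204 at 1087 CPM and Ddx58 at 160.6 CPM. Its cells had a median of 1915 UMIs.

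Within cluster 6, the 45 tumor control cells held Zbp1 at 845.3 CPM and the tumor IR cells at 847.7 CPM. In the same order, Ddx58 had 238.2 and 209 CPM, Ifi204 1493 and 1289 CPM and Ifih1 375.7 and 285.3 CPM. Dhx58 had 174.4 and 127 CPM, Aim2 100.6 and 57.0 CPM and Tbk1 67.1 and 59.9 CPM. Irf3 went the other way, with 13.4 and 14.2 CPM. No intervals were computed for these values, and with 45 control cells the differences may lie within counting error. The share of cluster 6 among WT cells was 1.32% without IR and 19.2% with IR, and among cKO cells 0.560% and 17.3%. Since the genes that lead clusters 6 and 8 are interferon-induced as the sensors are, these shares are a description. In blood, the corresponding group was cluster 8, neutrophil-like cells led by Ifit3b and other interferon-induced genes, with 326 cells in control and 718 in IR. It held Ddx58 at 224.1 CPM and Zbp1 at 273.7 CPM, against 66.5 and 46.2 CPM in cluster 0, the largest neutrophil-like cluster. Cluster 8 was 4.37% of WT blood cells without and 10.7% with IR, and for cKO 3.70% and 9.69%.

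Clusters 6 and 8 were also left out, an alternative chosen after seeing the data. Zbp1 was then at a log2 ratio of IR to control of 0.85 in WT tumors, below the limit, and 1.93 in cKO tumors. Ddx58 stood at 1.66 and 2.08. For Zbp1 and Ddx58 the difference between irradiated and untreated tumors was thus smaller without cluster 6 but was not restricted to it.

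Within macrophage-like cells, Ddx58 stood at 20.6 CPM in 1249 control and 66.7 CPM in 1077 IR cells of WT tumors, a log2 ratio of 1.69 (1.47 to 1.93), and at 15.6 and 60.2 CPM in cKO, a log2 ratio of 1.94 (1.72 to 2.18). Dhx58 had 1.19 in WT and 1.53 in cKO, Ifih1 1.13 and 1.10, and Ifi204 1.03 and 1.63. Zbp1 had 0.85 (0.77 to 0.93) in WT, under the limit, and 1.87 in cKO. Aim2 was at -0.02 and -0.05, with both intervals including 0. Clusters 3 and 5 held most macrophage-like cells, and cluster 5 made up 20.4% of them in control and 44.9% in IR for WT, and 9.08% and 47.8% for cKO. In cKO, clusters 11 and 18 made up 26.1% and 13.1% in control but 2.94% and 0.674% in IR. In WT they made up 11.1% and 2.64% in control and 3.16% and 0.836% in IR. Over all groups pooled, Zbp1 stood at 71.9 and 75.8 CPM in clusters 11 and 18, against 289.7 and 250.5 CPM in clusters 3 and 5. Ddx58 stood at 20.3 and 18.2 CPM, against 34.6 and 62.6 CPM. The part of this shift in the ratios was not tested.

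**Figure D5:**
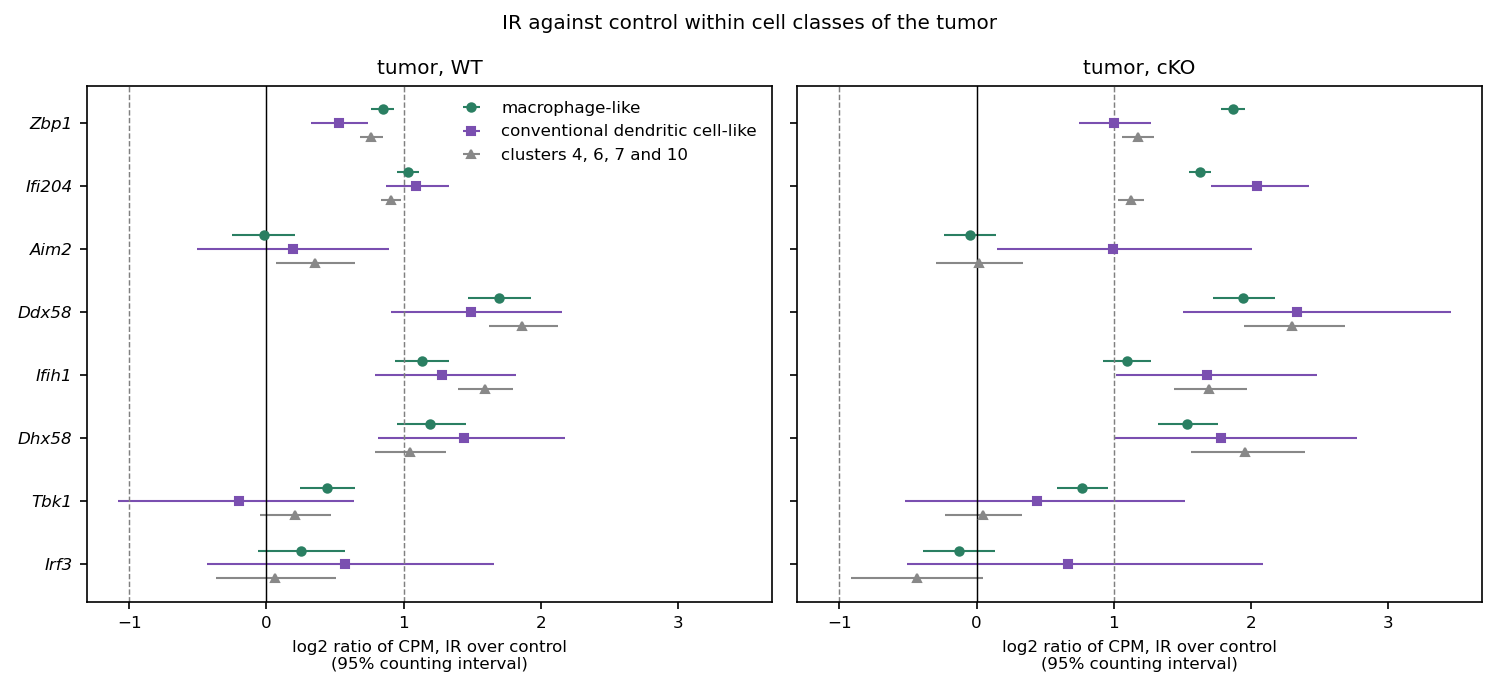
Log2 ratio of CPM, IR over control, within macrophage-like cells (circles), conventional dendritic cell-like cells (squares) and the unnamed clusters 4, 6, 7 and 10 together (triangles) of WT and cKO tumors, with 95% conditional binomial counting intervals and dashed lines at the 2-fold limit. The points of Ddx58, Ifih1 and Dhx58 lie beyond the 2-fold lines in each set and genotype, and every Irf3 interval includes 0.

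Conventional dendritic cell-like cells, fewer in number (84 to 149 per group), gave log2 ratios of 1.49 in WT (0.91 to 2.16) and 2.33 in cKO (1.51 to 3.46) for Ddx58, and of 1.09 and 2.04 for Ifi204. Fibroblast-like cells of WT tumors (116 control and 78 IR) gave 1.99 (1.64 to 2.38) for Zbp1 and 1.70 (1.34 to 2.11) for Ifi204, while the helicases had fewer than 100 UMIs there. In cKO tumors only 45 fibroblast-like cells were present after IR. In neutrophil-like cells of blood, Zbp1 stood at 38.4 CPM without and 102.4 CPM with IR in WT, a log2 ratio of 1.41 (1.23 to 1.61), past the limit, and at 53.2 and 95.5 CPM in cKO, a ratio of 0.84 (0.66 to 1.03). In monocyte-like cells of blood the Zbp1 ratio was 0.39 in WT and 0.29 in cKO, and Ifi204 was at -0.14 and -0.05 there, against 0.79 and 0.87 in neutrophil-like cells.

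Genes of the same pathway were counted from lists that hold other names than the members. All 10 measured PYHIN genes besides Ifi204 and Aim2 were higher past the limit after IR in tumors of both genotypes, against 2.58% of all genes in WT and 5.13% in cKO, with a median log2 ratio of 1.76 in WT and 2.70 in cKO. In WT, Ifi208 was the farthest from 0, with 4.87 CPM in control and 32.2 CPM in IR. In untreated tumors, 4 of the 10 were lower in cKO than in WT, against 1.35% of all genes, and Ifi213 had 9.29 against 25.1 CPM. Among 8 effectors of double-stranded RNA, which include the 2′-5′ oligoadenylate synthetases and the kinase PKR, 7 were higher after IR in WT (median 1.90) and 8 in cKO (median 3.09). Oasl1 had 25.6 CPM in control and 210.3 CPM in IR in WT. Read counts of the PYHIN and oligoadenylate synthetase genes are uncertain to the extent that close copies share reads.

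The shares of all genes higher past the limit, 2.58% in WT and 5.13% in cKO, apply to the counts of the lists that follow as well. Of 14 measured relay genes 4 were higher after IR in WT tumors (Cgas, Irf7, Rnf135 and Optn) and 3 in cKO tumors (Ikbke, Irf7 and Trim25), and none was lower in either. Irf7, a transcription factor that amplifies interferon, had 112.6 CPM in control and 567.8 CPM in IR in WT, and a log2 ratio of 3.33 in cKO. Of the measured genes for clearance and editing of nucleic acid, 1 of 10 was higher in WT (Adar) and 2 of 11 in cKO (Samhd1 and Adar), while 2 of 11 were lower in cKO (Rnaseh2a and Enpp1), close to the 16.8% of 10690 genes that were lower there. Of 10 effectors of ZBP1 and AIM2, 1 was higher in WT (Il18, a cytokine matured by inflammasomes) and 3 in cKO (Casp8, Casp1 and Il18).

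Of the type I interferon genes and their receptor signaling, 7 of 12 were measured in WT and 8 in cKO. Stat2 was the gene past the limit in WT, at 36.7 CPM without and 111 CPM with IR, and Stat2 and Irf9 were among the genes higher in cKO, where Ifnb1 was lower after IR. Ifnb1 had 4.08 CPM in cKO and 1.09 CPM in WT cells of untreated tumors. All 9 interferon-stimulated genes kept for comparison were higher after IR in WT tumors (median 2.79) and 8 of 9 in cKO (median 3.84). In blood, none of these lists had a gene past the limit after IR except that Ifit1 was higher in cKO.

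The genes most like each member were sought over 32 units, each a named cell class in 1 group with at least 50 cells, by Pearson's r of log2(CPM + 5) among 9994 genes. The units share libraries and depth, so r is a description only. Zbp1 was most like Stat2 (r = 0.935), Ifi204 most like Ifi27l2a (0.947), Ifih1 most like Trafd1 (0.937) and Dhx58 most like Rnf213 (0.929). Ddx58 was most like Samd9l (0.862), Aim2 most like Cotl1 (0.877), Tbk1 most like Vps4b (0.814) and Irf3 most like Atxn7 (0.927). Among the members, Ifih1 and Dhx58 were closest to each other (0.899), then Ifi204 and Dhx58 (0.895), Ifi204 and Ifih1 (0.891) and Zbp1 and Dhx58 (0.862). Ddx58, in contrast, had r of 0.259 with Ifih1, 0.218 with Dhx58 and 0.172 with Ifi204, and Irf3 had negative r with Zbp1 (-0.169) and Ifi204 (-0.323).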

How the data were processed

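Per the file headers and the labels, the authors made the libraries with 10x Genomics 3′ v3.1 chemistry and deposited raw UMI counts per gene or hashtag and barcode, without normalization. The submitters' processing notes name Cell Ranger 6.0.1, Seurat 4.0.6 and mm10, and the file headers name another Cell Ranger version. Cells were called again from all barcodes (order-of-magnitude threshold, then a multinomial test of barcodes with at least 500 UMIs against free RNA with 10000 simulations at a Benjamini-Hochberg level of 0.01). Cells had at least 200 genes, at most 25% mitochondrial UMIs and at least 20 hashtag UMIs, and were WT where B0301 was at least B0302 and cKO where B0302 was at least 4 times B0301. The 6% with the highest Scrublet scores per library were removed (scanpy 1.11.5), since the caller's own threshold marked at most 4 barcodes per library. Matrices held 51653956 to 87703837 gene UMIs. Cells were clustered with Seurat 5.3.0 (2000 variable genes without the 9 members, Ythdf2, Lyz1 and Lyz2, 40 components, resolution 0.8), and clusters were named from at least 3 raised markers.

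UMIs were summed per group, and log2 ratios of CPM were taken after adding 1 UMI scaled to depth. The ratios and intervals were tested on simulated data. No p-value was computed. All 9 members are named, with up to 3 genes of each pathway list with the largest ratio of a comparison and the genes most like each member by r (of the 3 found, the first is given). Other list genes past the limit are named where a count was 4 or fewer, after their values were seen. The members and lists were chosen with earlier results of these data known. Alternatives concerned the hashtag rule, cell calling, doublets, mitochondrial limit, scaling (edgeR 4.0.16), UMI minimum, weights and clustering.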

Additional observations from a re-analysis of the deposited data

Results flagged for a closer look

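Members stood out where the cKO to WT contrast had opposite signs in conditions that can be compared, with both counting intervals away from 0. None of these differences was tested, since each condition was 1 pool. Dhx58 had a log2 ratio of cKO to WT of -0.47 in untreated and 0.16 in irradiated tumors, a difference of 0.63. This value rests on the same UMI sums as the difference of its IR ratios given above and is not a separate result. Zbp1 had -1.05 in untreated tumor and 0.22 in control blood, a difference of -1.28. Tbk1 had -0.25 in untreated tumor and 0.31 in control blood, a difference of -0.57.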

How the results depend on the processing

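Each value rests on 1 pool per group, and counting intervals do not include variation between mice. Over all alternatives, 986 of 1184 values of single members stayed within the counting interval of the reported value, 197 moved outside it and 1 reversed. The number of members past the limit after IR in WT tumors was 5 and came to 4, without Zbp1, with equal weight of cells (0.99), in macrophage-like cells alone (0.85) and without clusters 6 and 8 (0.85), and to 2 in fibroblast-like cells alone, and the number in WT blood came to 1 (Zbp1) in neutrophil-like cells alone. For cKO against WT in untreated tumors it was 1 and came to 0 with the 4-fold margin for both hashtags, with the midpoint rule, without doublet removal, with equal weight of cells, in macrophage-like cells alone and in fibroblast-like cells alone, where Zbp1 ranged from -0.98 to -0.42. For untreated tumor against blood in WT it was 1 and came to 2 (Zbp1 and Ddx58) with equal weight of cells. At resolution 0.4, 4 of 8 members kept the class with the highest level.

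An alternative chosen after seeing the data left out every tumor barcode with at least 500 UMIs in both tumor matrices, which kept 52 to 104 cells per tumor group. No member then reached 100 UMIs within tumors, so the counts there were 0 for IR against control in WT and in cKO and 0 for cKO against WT in untreated tumors. Against blood they were 2 (Aim2 and Tbk1) in WT and 3 in cKO, and Ddx58 in WT reversed from -1.27 to 0.44 on 6 tumor UMIs. Within tumors the IR log2 ratio in WT was 0.33 for Zbp1 (1.15 with all cells) and 0.66 for Ddx58 (2.02). In cKO it was 0.999 for Zbp1 (2.20) and 2.899 for Ddx58 (2.50). Ddx58 had 6 control and 7 IR UMIs in WT, and 0 and 8 in cKO. Counts this low cannot show whether the IR difference holds in these cells. Of the 48 values of this alternative, 3 stayed within the counting interval, 44 moved outside it and 1 reversed. TMM factors shifted all log2 ratios of IR to control in tumors by 0.16 in WT and 0.21 in cKO. With them 6 members passed in cKO, Tbk1 included. With the low-UMI cluster 7 left out, 5 members passed after IR in both genotypes. No paired analysis was possible because the groups compared share only 1 replicate number in the labels, and the 4 libraries that hold both genotypes differ in tissue or treatment.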
